A study of Homo sapiens with 30 samples.

Results

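The genes described here are 10 mitotic kinesins, KIF11, KIF14, KIF15, KIF18A, KIF18B, KIF20A, KIF20B, KIF23, KIF2C and KIF4A, taken by gene symbol from the 60617 genes listed in each expression table. All 10 were matched and all 10 passed the filter on low counts in each cell line. They were measured by RNA sequencing in HCT116 and SW480, established human colorectal cancer cell lines. In each line there were 5 groups of 3 libraries: cells given a control siRNA, siBRD8-6 or siBRD8-36 (against the bromodomain gene BRD8), or siTIP60-2 or siTIP60-11 (against KAT5, which encodes the acetyltransferase TIP60). Every group received 10 nM siRNA and was harvested after 48 h, and no other treatment or engineered allele is named in the labels. Each line is a single established culture, 48 h of siRNA lowers an mRNA without removing the gene, and the labels do not state that the replicates of a group were grown separately. The p-values therefore measure the spread between these 30 libraries, which may be technical.

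Kinesins are motor proteins that use ATP to act on microtubules, and the mitotic ones are made mainly in G2 and M phase. Some push the spindle poles apart, some set the length of microtubules or align chromosomes, and others build the central spindle at which the cell divides. Transcription of such genes is known to be held down early in the cell cycle, and switched on late, through the MuvB complex, with the factors MYBL2 and FOXM1, at a short promoter element called the CHR (cell cycle genes homology region). BRD8 and TIP60 are both subunits of the TIP60 (NuA4) chromatin complex, which acetylates histones.

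The promoters are shown as a description of the members, and a link between a motif and the changes given below was not tested. Promoters of all 10 members were found in RefSeq (GRCh38.p14). The CHR was searched as TTTGAA or TTCGAA on either strand (TTTGAA on the other strand reads TTCAAA), from 60 bases before to 30 bases after each start. It was found in 8 of the 10 members, against 4.52% of 35116 promoters of the same length. Over the whole 300 bases of the RefSeq window it was found in the same count, 8 of 10, against 16.4% of all promoters. The CCAAT box, which binds the factor NF-Y and was searched as CCAAT or ATTGG on either strand, was found in 8 of 10 of the 300-base windows, against 34.6% of all promoters. In the shorter window it was found in 5 of 10, against 11.8%. Each line below runs from 60 bases before the start to 20 bases from the start onwards, 5′ to 3′ on the gene's own strand, with CHR matches in capitals.
KIF11: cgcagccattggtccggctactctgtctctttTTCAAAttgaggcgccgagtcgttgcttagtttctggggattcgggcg
KIF15: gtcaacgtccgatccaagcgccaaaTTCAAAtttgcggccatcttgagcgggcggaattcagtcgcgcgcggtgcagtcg
KIF23: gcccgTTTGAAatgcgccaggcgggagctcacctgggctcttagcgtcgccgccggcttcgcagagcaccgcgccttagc
KIF4A: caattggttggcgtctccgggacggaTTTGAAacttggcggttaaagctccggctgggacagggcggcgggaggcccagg
KIF14: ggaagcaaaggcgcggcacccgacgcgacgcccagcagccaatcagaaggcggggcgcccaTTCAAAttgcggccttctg
KIF18A: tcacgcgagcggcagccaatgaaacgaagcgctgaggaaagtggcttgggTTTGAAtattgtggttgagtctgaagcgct
KIF18B: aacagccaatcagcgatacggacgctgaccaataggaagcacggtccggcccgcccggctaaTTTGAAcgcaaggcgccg
KIF20A: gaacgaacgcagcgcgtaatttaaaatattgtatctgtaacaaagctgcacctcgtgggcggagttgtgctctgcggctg
KIF2C: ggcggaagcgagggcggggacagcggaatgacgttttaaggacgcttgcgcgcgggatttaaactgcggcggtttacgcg

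These windows lie at chr10:92593070-92593149 (KIF11, plus strand), chr3:44761734-44761813 (KIF15, plus), chr15:69414289-69414368 (KIF23, plus) and chrX:70290044-70290123 (KIF4A, plus). The others lie at chr1:200620732-200620811 (KIF14, minus), chr11:28108137-28108216 (KIF18A, minus), chr17:44947754-44947833 (KIF18B, minus), chr5:138179052-138179131 (KIF20A, plus) and chr1:44739777-44739856 (KIF2C, plus). In KIF20B the matches began 25 and 31 bases after the start, beyond the printed length, so its window is not shown. KIF20A and KIF2C held no match to these letters in the window. A match is a description of the sequence, and binding there was not measured.

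HCT116 libraries held 13.4 to 18.6 M counts and SW480 libraries 7.07 to 11.7 M, so the latter rest on fewer reads. Cell line and sequencing depth cannot be told apart. The 10 members held 0.0301% to 0.0834% of the counts of a library in HCT116 and 0.0206% to 0.066% in SW480. BRD8 mRNA fell to 20.9% of control with siBRD8-6 and 14.2% with siBRD8-36 in HCT116, and to 24.5% and 21.2% in SW480. KAT5 mRNA fell to 7.38% (siTIP60-2) and 9.92% (siTIP60-11) of control in HCT116, with adjusted p at most 3.28e-16, and by 3.64 and 2.87 on the log2 scale in SW480. Of the 7 epithelial markers, 6 were above 1 TPM in every library of each line (VIL1 was below 1 in HCT116), while the 3 endothelial markers (PECAM1, VWF and CDH5) were below 1 TPM throughout. Of 5 leukocyte markers, 3 were below 1 TPM throughout and 1 was above it in every HCT116 library, with sums of 3.06 to 28.3 TPM in that line and 0.38 to 6.27 in SW480. Of 6 fibroblast markers, 1 in each line was above 1 TPM in every library, while DCN, LUM, COL1A2 and COL3A1 were below it, with sums of 7.28 to 29.7 TPM in HCT116 and 2.57 to 10.2 in SW480. One HCT116 library stood apart: control replicate 2 had the fewest counts of its line, 13.4 M, and the highest share of ribosomal protein mRNA, 8.88%, where the line's median was 6.76%. Its members summed to 266 TPM, against 356 and 390 in the other control libraries, so calls that change without it are given beside the HCT116 results. In SW480 the 3 control libraries had the lowest totals of the line (7.07 to 7.69 M) and the highest shares of ribosomal protein mRNA (9.57% to 9.99%, against 7.02% to 8.74% with the siRNAs against BRD8 or KAT5), and the part of this in the SW480 results was not tested. As these are bulk samples, fewer cells in mitosis and less kinesin mRNA per cell cannot be told apart.

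With control siRNA, the kinesins spanned a wide range of levels, compared here in TPM, which corrects for transcript length. In HCT116 the highest was KIF2C, the kinesin-13 that takes microtubules apart rather than walking on them, at 73.5 ± 13.1 TPM (SD, n = 3), and the lowest was KIF15, a plus-end motor that supports the bipolar spindle, at 10.4 ± 1.22 TPM. The order between them was KIF23 (65.9 TPM), KIF20A (45.8), KIF4A (33.9), KIF18A (29.9), KIF20B (25.2), KIF11 (21.2), KIF18B (19.6) and KIF14 (11.7). Only KIF18B and KIF14 were neighbours in that order whose 3 libraries did not overlap. SW480 control cells held 186 ± 5.63 TPM of the 10 members together, against 337 ± 63.9 TPM in HCT116. KIF23, a subunit of the centralspindlin complex, led the order in SW480 at 36.2 ± 5.45 TPM and KIF14 was last at 4.61 ± 0.0351 TPM.

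**Figure D1:**
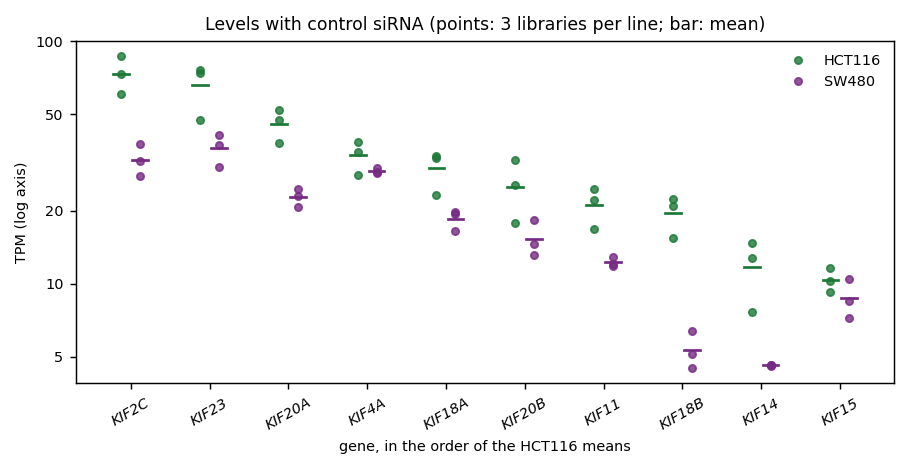
TPM of each mitotic kinesin with control siRNA (vertical log axis), genes on the horizontal axis in the order of their HCT116 means; points are the 3 libraries of each line and bars their means. KIF2C and KIF23 sit highest in both lines, KIF14 and KIF15 lowest in HCT116 and KIF14 and KIF18B lowest in SW480, and KIF18B and KIF14 are further apart between the lines than KIF4A and KIF15.

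The control cells of the lines were compared in a fit of all 30 libraries. Of the 10 members, 9 were lower in SW480 than in HCT116, where 41.5% of the 17411 genes tested were lower, and the median of the members was -0.57 (log2) beside -0.08 for all genes. KIF18B, which acts on astral microtubules with KIF2C, differed most. Its levels are given on a scale common to both lines as CPM, counts scaled to the library total as adjusted by TMM. KIF18B stood at 54.8, 46.2 and 56.5 CPM in the HCT116 controls and, in those of SW480, at 15.5, 15.5 and 18.7 CPM. The sets are well apart, and the fitted difference was -1.67 ± 0.0887 (log2, SE; edgeR quasi-likelihood test, Benjamini-Hochberg adjusted p = 3.97e-18). KIF14, a motor of the midbody, differed by -1.05 ± 0.116 (adjusted p = 2e-09) and KIF2C by -1.01 ± 0.07 (adjusted p = 5.44e-15). The difference of KIF4A, a chromokinesin that also limits the central spindle's length, was 0.09 ± 0.0684 (adjusted p = 0.234). That of KIF4A depended on scaling and on libraries: it was 0.19 and called with RLE size factors (adjusted p = 0.0105), 0.20 and 0.21 and called without replicate 3 of the HCT116 or of the SW480 controls, and -0.19 and not called on log2(TPM + 1). KIF15 was lower by this test, with a difference of -0.22 (adjusted p = 0.0177), and lost its call under 5 alternatives, among them RLE scaling (adjusted p = 0.204), and without any one of 3 control libraries. The RLE factors moved the median of all genes by 0.10 in this comparison.

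In HCT116, siBRD8-36 lowered all 10 kinesins, while siBRD8-6 lowered 3, raised 3 and left 4 without a call. A gene is called for 1 siRNA where its adjusted p is under 0.05, and siBRD8-36 lowered 29.4% of the 15919 genes tested. With siBRD8-6, 25.7% of genes were lower and 24.8% higher, so its counts of members were near these shares. Leaving out a library gave 3 to 5 called members with siBRD8-6, fewer than with all libraries. The falls with siBRD8-36 ran from -0.81 (KIF4A) to -1.94 (KIF11) on the log2 scale, with a median of -1.26, beside 0.00 for all genes.

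Among the motors that separate the poles, KIF11, the plus-end motor that slides antiparallel microtubules apart, was measured at 71.8, 63.4 and 79.2 CPM in the HCT116 control libraries (here and below, scaled within the line). It stood at 53.8, 50.2 and 54.8 CPM with siBRD8-6 and at 18, 20.2 and 18 CPM with siBRD8-36. The 3 groups did not overlap and lay in the order control, siBRD8-6, siBRD8-36. Its log2 change was -0.43 ± 0.0767 (adjusted p = 0.000107) for siBRD8-6 and -1.94 ± 0.0847 (adjusted p = 5.85e-13) for siBRD8-36. KIF15 stood at 27.1, 27.6 and 33.1 CPM in control, 24.7, 25.5 and 25.6 CPM with siBRD8-6, and 14.3, 15 and 14.5 CPM with siBRD8-36. Again no library crossed between groups, but control and siBRD8-6 were close, at -0.21 ± 0.0746 (adjusted p = 0.0248). Its change with siBRD8-36 was -1.0 ± 0.0792 (adjusted p = 2.45e-09).

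The microtubule depolymerase KIF2C moved like KIF11. It stood at 126, 124 and 142 CPM in control, 89.0, 104 and 94.0 CPM with siBRD8-6, and 32.4, 35.3 and 34.9 CPM with siBRD8-36. All 3 groups were apart, and its mean with siBRD8-36 was 26.1% of control. KIF2C changed by -0.45 ± 0.0652 (adjusted p = 1.27e-05) for siBRD8-6 and by -1.93 ± 0.0703 (adjusted p = 4.84e-14) for siBRD8-36. KIF18B, its partner on astral microtubules, fell by 1.42 on the log2 scale with siBRD8-36 and stood at -0.05 ± 0.0691 with siBRD8-6 (adjusted p = 0.593). KIF18A, which damps the movements of chromosomes at the spindle's middle, went opposite ways with the siRNAs. It stood at 62.7, 52.6 and 63.4 CPM in control, 68.9, 63.2 and 70.3 CPM with siBRD8-6, and 28.6, 26.1 and 29.1 CPM with siBRD8-36. The siBRD8-6 values overlapped control, with a change of 0.18 ± 0.0674 (adjusted p = 0.0369). That of siBRD8-36 was -1.10 ± 0.072 (adjusted p = 1.85e-10), far from control in each library.

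The motors of the central spindle and of cytokinesis fell with siBRD8-36, and with siBRD8-6 none was called lower and KIF4A and KIF20A rose. KIF23, which joins RACGAP1 in centralspindlin, stood at 130, 102 and 133 CPM in control, 106, 109 and 111 with siBRD8-6, and 42.9, 47.2 and 44.6 with siBRD8-36. Only the siBRD8-36 libraries were clear of control, at -1.44 ± 0.0792 (adjusted p = 1.5e-11), and the siBRD8-6 change was -0.17 (adjusted p = 0.0702). KIF14 stood at 60.1, 41.3 and 69.6 CPM in control, the widest control spread of the 10 members relative to its mean, and at 18.5, 20 and 18.5 CPM with siBRD8-36. Its low control value is from replicate 2, and the siBRD8-36 libraries all lay below it (-1.59 ± 0.143, adjusted p = 2.04e-07).

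KIF4A stood at 70.3, 63.2 and 76.1 CPM in control, 85.4, 83.4 and 84.1 CPM with siBRD8-6, and 36.4, 44.7 and 38.6 CPM with siBRD8-36. The control libraries lay between the siRNAs without overlap, with changes of 0.27 ± 0.0706 (adjusted p = 0.00377) and -0.81 ± 0.0739 (adjusted p = 1.74e-08). KIF20A, which carries the chromosomal passenger complex to the central spindle, also rose with siBRD8-6 by 0.20 ± 0.067 (adjusted p = 0.0181) and fell by 0.91 with siBRD8-36. KIF20B, a plus-end motor of cytokinesis, was at -0.02 with siBRD8-6 (adjusted p = 0.783) and fell by 0.96 with siBRD8-36.

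When both siRNAs had to move a gene the same way, with the larger p-value adjusted over all genes, 3 of the 10 were lower in HCT116 and 0 higher, where 12.2% of genes were lower and 12.2% higher. These were KIF2C (-1.19, adjusted p = 2.76e-05), KIF11 (-1.19, adjusted p = 0.000223) and KIF15 (-0.61, adjusted p = 0.0464). At 3 of 10 this is above the share of all genes, and no test of that excess was made. KIF15 lost the call in 12 of 17 alternatives, among them DESeq2 (adjusted p = 0.124; range over the 17, 0.0213 to 0.355), and was called without control replicate 2. Without that library, KIF23 was also called, so 4 members were called with both siRNAs, and with siBRD8-6 alone 4 were lower and 1 (KIF4A) higher, so the rises of KIF18A and KIF20A were no longer called. Leaving out replicate 3 of siBRD8-6 left 2 lower and 1 higher.

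**Figure D2:**
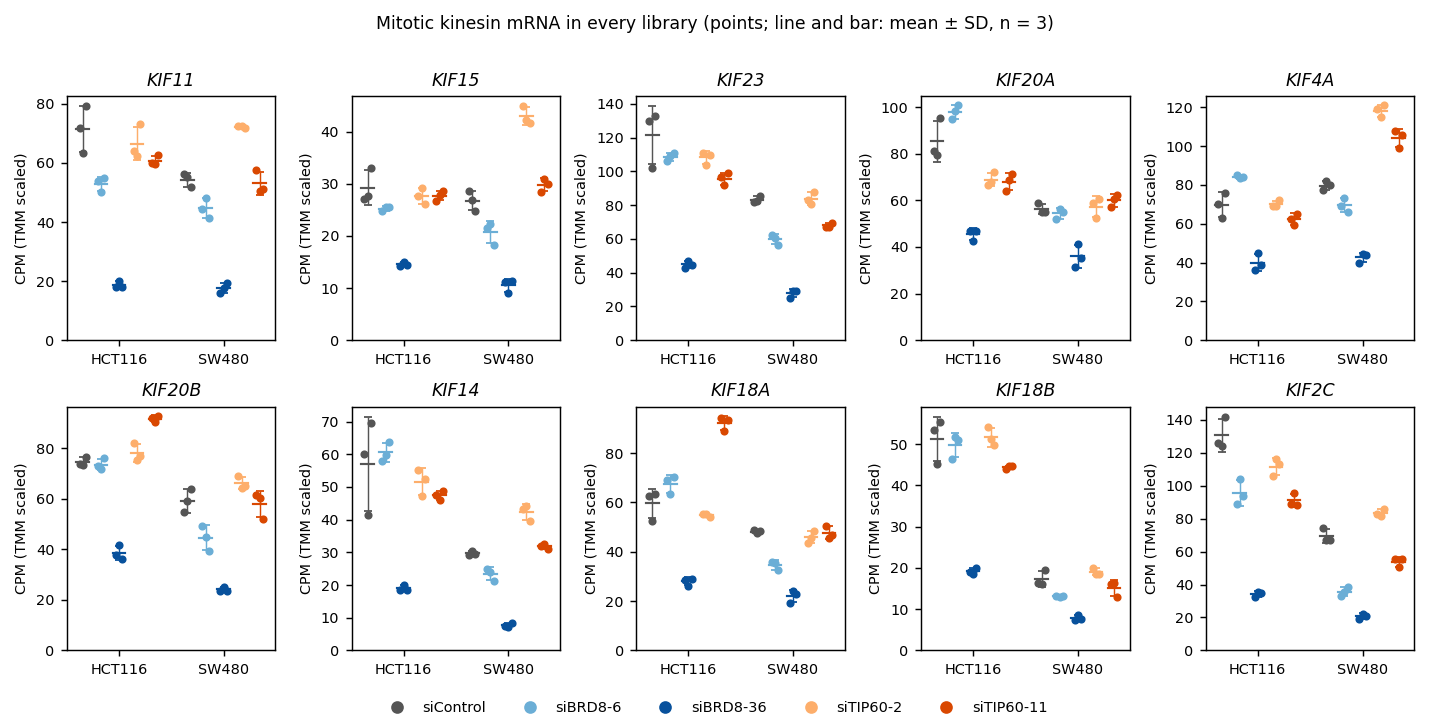
CPM (vertical axes, linear from 0, scaled within each line) of the 10 kinesins in all 30 libraries; points are libraries, and the horizontal line and bar give the mean and SD of the 3 replicates of a group. In every panel the siBRD8-36 libraries of each line sit lowest, and KIF18A with siTIP60-11 in HCT116 and KIF4A with either TIP60 siRNA in SW480 sit above their controls.

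In SW480, on scaled counts, both BRD8 siRNAs lowered most or all of the family. Most siBRD8-6 calls were lost on log2(TPM + 1), as given below. With siBRD8-36 all 10 members were lower, where 28.5% of the 15277 genes tested were, and with siBRD8-6 it was 9 of 10, where 26.3% were. Called with both siRNAs, 9 members were lower and 0 higher, where 14% of genes were lower and 12.9% higher. The exception was KIF20A, and the members' median was -0.86 beside 0.00 for all genes. The changes with siBRD8-36 ran from -0.65 (KIF20A) to -1.95 (KIF14).

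KIF2C had the largest mean change over both siRNAs (-1.35 ± 0.0671, adjusted p = 2.01e-10). It stood at 74.2, 67 and 67.2 CPM in control, 33.3, 35.3 and 38.6 CPM with siBRD8-6, and 18.8, 22.4 and 20.9 CPM with siBRD8-36. The siBRD8-6 libraries averaged 51.4% of control, a wider gap than for any other member with that siRNA (-0.95 ± 0.0769, adjusted p = 4.87e-11). Its partner KIF18B stood at 16.3, 16.2 and 19.6 CPM in control, 13.1, 12.9 and 13.2 with siBRD8-6, and 7.46, 8.66 and 7.68 with siBRD8-36. The 3 groups did not overlap, and KIF18B fell by 0.40 (adjusted p = 0.0048) and 1.13 (adjusted p = 1.3e-08). KIF18A stood at 48.6, 47.4 and 48.3 CPM in control, 35.9, 35.5 and 32.5 with siBRD8-6, and 19.1, 24.0 and 22.9 with siBRD8-36. So siBRD8-6, which gave a small rise of KIF18A in HCT116, lowered it here by 0.48 on the log2 scale (adjusted p = 1.78e-05).

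KIF11 stood at 56.2, 55.2 and 51.7 CPM in SW480 control, 44.5, 48.3 and 41.5 with siBRD8-6, and 16.0, 17.7 and 19.2 with siBRD8-36. The fall with siBRD8-36, to 32.4% of control, was large beside that with siBRD8-6, to 82.4%. KIF15 fell by 0.38 with siBRD8-6 (adjusted p = 0.00197) and by 1.34 with siBRD8-36 (adjusted p = 3.15e-11). KIF14 stood at 29.1, 30.4 and 29.6 CPM in control, 25.0, 24.0 and 21.2 with siBRD8-6, and 7.37, 7.22 and 8.38 with siBRD8-36. Control libraries of KIF14 were tight in SW480, unlike in HCT116, and the siBRD8-36 mean was 25.8% of control.

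Among the central spindle motors, KIF23 stood at 82.1, 82.4 and 85.5 CPM in control, 62.5, 60.6 and 56.5 with siBRD8-6, and 25.2, 28.9 and 29.4 with siBRD8-36. The steps were -0.48 ± 0.0675 (adjusted p = 1.11e-06) and -1.58 ± 0.0732 (adjusted p = 2.59e-16). KIF20B fell by 0.42 and 1.29, and KIF4A by 0.20 and 0.90, in the same order of siRNAs. KIF20A stood at 58.9, 54.8 and 55.1 CPM in control, 51.8, 56.3 and 55.2 with siBRD8-6, and 31.6, 41.3 and 35.1 with siBRD8-36. Its siBRD8-6 libraries overlapped control (-0.05 ± 0.0823, adjusted p = 0.656), and it is the member that misses the call for both siRNAs.

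KIF20A is also the neighbour of BRD8. The genes are read away from each other with RefSeq starts 482 bases apart, and their GENCODE 29 spans overlap by 268 bases. Of the exonic bases of KIF20A, 132 (3.34%) are also exonic in BRD8 on the other strand. The library kit keeps strand, the strand setting of the counting is not given in the sources used here, and what reads from that overlap add to KIF20A was not tested. Other exonic overlaps on the opposite strand are with CDC23 (KIF20A, 68 bases), METTL15 (KIF18A, 61 bases), PDZD11 (KIF4A, 77 bases) and AC027237.3 (KIF23, 231 bases) and AL592166.1 (KIF2C, 175 bases).

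The SW480 calls depended on scaling and, for KIF4A and KIF18B, on single libraries. Total counts without TMM moved the median of all genes by 0.12 in the SW480 BRD8 comparison and log2(TPM + 1) moved it by 0.23. With total counts 6 members were called lower with both siRNAs, and KIF11, KIF18B and KIF4A lost the call. KIF4A also lost it without a filter (adjusted p = 0.0722) and without replicate 2 or 3 of the controls or replicate 3 of siBRD8-6 (adjusted p = 0.0896, 0.0584 and 0.106). KIF18B lost it without control replicate 3 (adjusted p = 0.0821), which left 7 members. On log2(TPM + 1) with limma only KIF15 and KIF2C were called. With siBRD8-36 alone all 10 stayed lower on each scale, whereas with siBRD8-6 alone the TPM scale gave 2 lower (KIF15 and KIF2C) and 1 higher (KIF20A). Mean TPM with siBRD8-6 was above control for KIF11 (12.4 against 12.3), KIF20A (28.2 against 22.8), KIF20B (15.8 against 15.4) and KIF4A (31 against 29.3). For the other members it was below control, and the 10 summed to 170 TPM against 186.

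**Figure D3:**
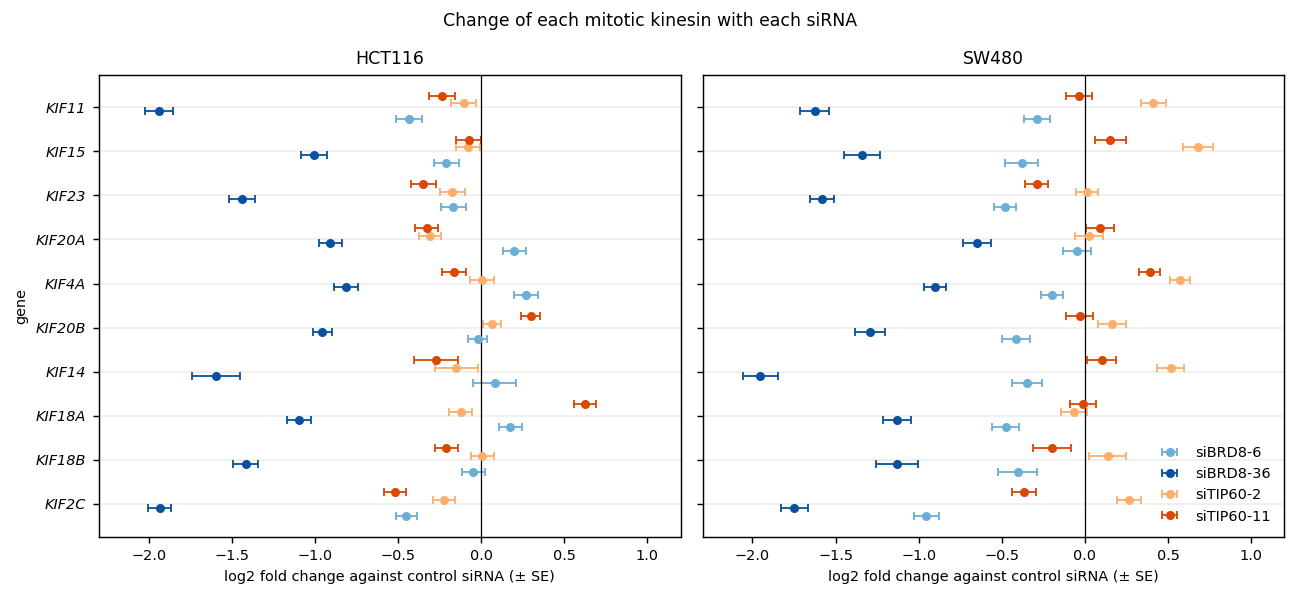
Log2 fold change (horizontal axis) against control of the 10 kinesins (vertical axis) with each siRNA in HCT116 (left) and SW480 (right); points are the fitted values and bars 1 SE. The siBRD8-36 points lie between -0.65 and -1.95 in both lines, while the siBRD8-6 points lie on both sides of 0 in HCT116 and below 0 in SW480.

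The siRNAs of BRD8 were compared directly. All 10 members were lower with siBRD8-36 than with siBRD8-6 in HCT116, where 28.3% of genes were, and all 10 in SW480, where 27% were. The median difference of the members was -1.27 in HCT116 and -0.83 in SW480, and 0.00 over all genes in each line. The HCT116 difference ran from -0.79 (KIF15) to -1.68 (KIF14, ± 0.142, adjusted p = 1.23e-07), and in SW480 from -0.60 (KIF20A) to -1.60 (KIF14, ± 0.104, adjusted p = 3.18e-13). These counts were the same under each alternative run. BRD8 mRNA itself was lower with siBRD8-36 than with siBRD8-6 in HCT116 (-0.55 ± 0.113, adjusted p = 0.000376), and in SW480 the difference was not called (-0.22 ± 0.113, adjusted p = 0.107). KAT5 mRNA was lower with siBRD8-36 than with siBRD8-6 in both lines, at -0.46 ± 0.0552 (HCT116, adjusted p = 9.24e-07) and -0.49 ± 0.0842 (SW480, adjusted p = 1.89e-05). The part of either level in the kinesin difference was not tested.

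Few kinesins were called with both TIP60 siRNAs in either line, and the counts were near the shares of all genes. In HCT116, 2 members were lower and 0 higher with both, where 14.1% of genes were lower and 13.7% higher, and the members' median was -0.14 beside -0.03 for all genes. The comparison shares its 3 control libraries with the BRD8 comparison. KIF20A stood at 81.2, 79.3 and 95.3 CPM in control, 66.7, 67.8 and 72.2 with siTIP60-2, and 64.1, 68.5 and 71.4 with siTIP60-11. The TIP60 libraries all lay below control, with a mean change of -0.32 (adjusted p = 0.00161). KIF2C stood at 106, 116 and 113 CPM with siTIP60-2 and 89.1, 95.6 and 88.6 with siTIP60-11, below the 124 CPM of its lowest control library, with a mean change of -0.37 (adjusted p = 0.0126).

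Singly, siTIP60-11 gave more calls than siTIP60-2 in HCT116. With siTIP60-2, the same 2 members were lower (KIF20A and KIF2C), where 25.4% of genes were. With siTIP60-11, 5 were lower (KIF11, KIF18B, KIF20A, KIF23 and KIF2C), where 27.7% of genes were, and 2 were higher, where 25.9% were. The pair that rose were KIF18A and KIF20B. KIF18A stood at 55.1, 55.2 and 54.1 CPM with siTIP60-2 and at 94.1, 88.8 and 93.5 with siTIP60-11, against 52.6 to 63.4 CPM in control. The siTIP60-11 libraries stood above all other HCT116 libraries for this gene (0.62 ± 0.0668, adjusted p = 2.29e-07), while siTIP60-2 overlapped control (-0.12, adjusted p = 0.142). KIF20B stood at 92.1, 90.3 and 92.9 CPM with siTIP60-11, above the control range of 73.6 to 76.8 (0.30 ± 0.0555, adjusted p = 0.000164).

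The direct difference between the TIP60 siRNAs in HCT116 was called for 4 members. KIF18A (0.75 ± 0.0669, adjusted p = 3.45e-08) and KIF20B (0.23, adjusted p = 0.00195) were higher with siTIP60-11, where 22.5% of genes were. KIF18B (-0.22, adjusted p = 0.0158) and KIF2C (-0.30, adjusted p = 0.00111) were lower, where 23.5% were. Both counts were near these shares. KIF18B lost its call without replicate 1 of siTIP60-2 (adjusted p = 0.0657) or of siTIP60-11 (adjusted p = 0.0503). On log2(TPM + 1) KIF18B and KIF20B lost theirs (adjusted p = 0.239 and 0.49). Without a filter KIF23 and KIF4A gained a call (adjusted p = 0.0175 and 0.0273), as did KIF23 with the replicate number as a block (adjusted p = 0.0455).

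The HCT116 counts for TIP60 rested on single libraries. Without control replicate 2, 5 members were lower with both siRNAs (KIF11, KIF14, KIF20A, KIF23 and KIF2C), 6 with siTIP60-2 alone, and 7 lower and 2 higher with siTIP60-11 alone (KIF14 and KIF4A added). Without control replicate 3, or without siTIP60-2 replicate 1, only KIF20A was called, and on log2(TPM + 1) none was.

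In SW480, 1 member was higher with both TIP60 siRNAs, where 11.5% of genes were, and 0 were lower, where 12.1% were. It was KIF4A, which stood at 77.3, 81.9 and 79.9 CPM in control, 119, 115 and 121 with siTIP60-2, and 108, 99.2 and 106 with siTIP60-11. Both siRNAs lay above control in each library, with a mean change of 0.48 ± 0.0554 (adjusted p over both siRNAs = 2.72e-05), and this call held in each alternative run, with adjusted p from 2.56e-07 to 0.000638. KIF4B, an intronless near-copy of KIF4A, held at most 10.94 counts in any library, or up to 1.44% of the count of KIF4A.

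Other members rose with siTIP60-2 alone. Here 5 were higher, where 25.1% of genes were: KIF15 (0.68), KIF4A (0.57), KIF14 (0.52), KIF11 (0.41) and KIF2C (0.26). KIF15 stood at 28.6, 27 and 24.8 CPM in control, 45.0, 42.3 and 41.7 with siTIP60-2, and 28.5, 31.0 and 29.9 with siTIP60-11. Its siTIP60-2 libraries were apart from the rest (± 0.0914, adjusted p = 6.51e-07), and its siTIP60-11 libraries overlapped control (adjusted p = 0.187). KIF11 stood at 72.6, 72.5 and 71.7 CPM with siTIP60-2, against 51.7 to 56.2 in control, and at 57.6, 50.4 and 51.2 with siTIP60-11. The groups show the same pattern as KIF15: siTIP60-2 alone was clear of control.

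With siTIP60-11 in SW480, 2 members were lower, where 24.2% of genes were, and 1 (KIF4A) was higher, where 23.4% were. KIF2C stood at 55.5, 50.5 and 55.8 CPM, below control, and at 83.1, 81.5 and 85.8 CPM with siTIP60-2, above control. KIF2C thus had opposite calls with the siRNAs of TIP60 (-0.37, adjusted p = 0.000174, and 0.26, adjusted p = 0.00306). KIF23 fell by 0.29 with siTIP60-11 (adjusted p = 0.000695) and stood at 0.01 with siTIP60-2. Compared directly, 8 members were lower with siTIP60-11 than with siTIP60-2, where 23.4% of genes were, with KIF18A (0.05) and KIF20A (0.07) the exceptions. Of these, KIF20B (-0.19, adjusted p = 0.0473) lost its call in 9 of 13 alternatives, with adjusted p from 0.0086 to 0.266. KIF18B lost its call without replicate 1 of siTIP60-2 (adjusted p = 0.0579) or replicate 3 of siTIP60-11 (adjusted p = 0.11), KIF4A lost it without replicate 2 of siTIP60-11 (adjusted p = 0.0878), and leaving out a library gave 6 to 8 members. KAT5 was higher with siTIP60-11 than with siTIP60-2 (0.77 ± 0.168, adjusted p = 0.000465), and its part in the kinesin difference was not tested. On log2(TPM + 1), where the median of all genes moved by 0.23 for siTIP60-2 and 0.11 for siTIP60-11, 8 members were higher with siTIP60-2, and the falls of KIF23 and KIF2C with siTIP60-11 were not called.

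The targets were set against each other within a line through the means of their siRNAs. In HCT116, 9 members were lower with the BRD8 siRNAs than with the TIP60 siRNAs, where 31.7% of genes were, and KIF20A was not called (-0.04 ± 0.0488, adjusted p = 0.555). The members' median was -0.59, beside -0.01 for all genes, and the widest gap was that of KIF11 (-1.02 ± 0.0574, adjusted p = 2.11e-11). A stricter call required all 4 pairings of a BRD8 siRNA with a TIP60 siRNA to differ in 1 direction. No member met it in HCT116, where 5.92% of genes were lower under it, and its adjusted p was closest for KIF11, at 0.125. In single pairs, siBRD8-6 stood above siTIP60-2 for KIF20A (0.51, adjusted p = 3.69e-06) and above siTIP60-11 for KIF4A (0.43, adjusted p = 3.91e-05).

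In SW480 all 10 members were lower with the BRD8 siRNAs, where 30.2% of genes were, with a median of -0.98 beside -0.01. The difference ran from -0.41 (KIF20A) to -1.46 (KIF14 ± 0.0649, adjusted p = 1.06e-16). By the stricter call 7 members were lower, where 5.52% of genes were: KIF11, KIF14, KIF15, KIF18A, KIF20B, KIF2C and KIF4A. KIF2C had the lowest adjusted p but for KIF4A (2.14e-06 and 6.69e-08), and KIF23 missed the threshold (adjusted p = 0.0741).

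The difference between the lines in a response was tested by the interaction term of the 30-library fit, in which the median of all genes was 0.10 for BRD8 and 0.06 for TIP60. For TIP60, 6 members responded higher in SW480 than in HCT116, where 18% of the 17411 genes did, and 1 lower, where 13.1% did. KIF4A differed by 0.60 ± 0.0825 (adjusted p = 6.48e-07), from -0.08 in HCT116 and 0.48 in SW480. KIF14 (0.56), KIF15 (0.53), KIF20A (0.42), KIF11 (0.40) and KIF2C (0.36) also differed. The term averages the siRNAs of a target, which were not always alike. KIF15 stood at 94.5% of control in HCT116 and 160% in SW480 with siTIP60-2, and at 94.9% and 111% with siTIP60-11. KIF2C stood at 85.5% and 120% with siTIP60-2, and at 69.5% and 77.6% with siTIP60-11. KIF20A was alike with both, at 80.8% and 102%, and at 79.7% and 106%. KIF15 lost its call on log2(TPM + 1), at 0.16 (adjusted p = 0.432), and KIF23 (0.16, adjusted p = 0.176) gained one with total counts (0.24, adjusted p = 0.0443) and without HCT116 control replicate 2 (0.27, adjusted p = 0.00223). KIF18A went the other way (-0.25 ± 0.0904, adjusted p = 0.0326), with its rise in HCT116 seen with siTIP60-11, and it was no longer called with total counts (adjusted p = 0.182), on log2(TPM + 1), or without HCT116 control replicate 2 or SW480 control replicate 1.

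For BRD8, 2 members responded lower in SW480, KIF20B (-0.30 ± 0.0888, adjusted p = 0.00868) and KIF18A (-0.28 ± 0.0933, adjusted p = 0.0205), where 12.5% of genes did. KIF11 responded higher there (0.30 ± 0.101, adjusted p = 0.0201), where 21.9% did, so its fall was smaller in SW480. Both counts were near the shares of all genes, and the values average both siRNAs. The difference of KIF18A lay with siBRD8-6, at 113% of control in HCT116 and 71.9% in SW480. With siBRD8-36 KIF18A stood at 46.8% and 45.7%. KIF20B was lower in SW480 with both, at 98.5% and 75.3% with siBRD8-6 and 51.7% and 40.9% with siBRD8-36. With RLE scaling, which moved the median of all genes by -0.07, 5 members were lower and 0 higher, and KIF11 stood at 0.22 (adjusted p = 0.0881). KIF11 also lost its call when any one of 8 libraries was left out. Without HCT116 control replicate 3 or SW480 control replicate 3, 6 were lower and 0 higher. KIF20B was called in every alternative but log2(TPM + 1), where KIF11 was the only member called. With total counts, or without HCT116 control replicate 2, KIF18A was not called.

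**Figure D4:**
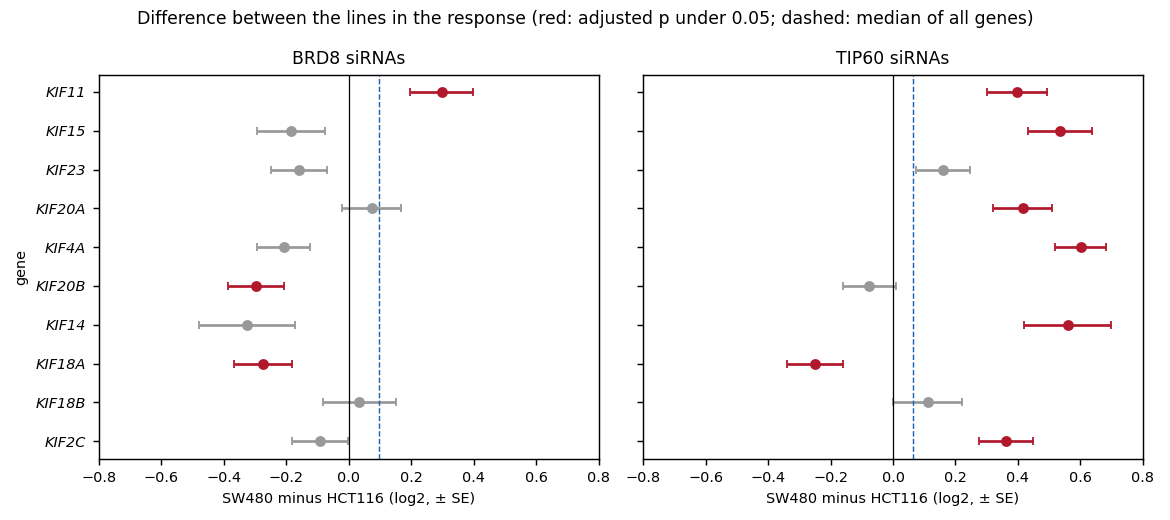
Response in SW480 minus response in HCT116 (log2, horizontal axes, points with bars of 1 SE) of the 10 kinesins to the BRD8 siRNAs (left) and the TIP60 siRNAs (right); red points have an adjusted p under 0.05 and the dashed line is the median of all genes. For TIP60, 6 red points lie to the right of 0 and KIF18A lies to the left, and for BRD8 the 3 red points lie on both sides.

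Across the 30 libraries, after centring log2 CPM within each line, the 45 pairs of members correlated with Pearson's r from 0.718 to 0.972 (median 0.905). This is a description over libraries that share treatment groups and the same siBRD8-36 fall. KIF23 and KIF14 followed the mean of the 10 most closely (r = 0.983 each), and KIF20A (0.859) and KIF18A (0.893) least. Each member is part of that mean, which raises its r, so these values are not on a par with those of other genes. The 5 other protein-coding genes most like the members' mean, of 11481 considered, were ESCO2, a cohesin acetyltransferase (r = 0.983), ATAD2, a bromodomain ATPase (0.982), GTSE1, a regulator of mitotic microtubules (0.982), ASPM, a spindle pole protein (0.98), and E2F7, a repressor of the E2F family (0.98). These 5 were picked for following the members over these same libraries, so their changes are no separate evidence. With both BRD8 siRNAs 4 of these 5 were lower in SW480 (ESCO2 -1.26, GTSE1 -1.26, E2F7 -1.20 and ATAD2 -0.95), where 14% of genes were. ASPM was not called there (-0.80, adjusted p = 0.532). In HCT116 none of the 5 was called, with values of -0.81 (GTSE1, adjusted p = 0.0855) to -1.05 (ESCO2, adjusted p = 1).

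Other genes of the spindle were counted in lists chosen by function, with earlier results of these data known. The genes named from each list are those with the largest mean change over these same comparisons. Neither the counts nor the named genes are therefore separate evidence. Of 12 central spindle and cytokinesis partners, 4 were lower with both BRD8 siRNAs in HCT116 and 10 in SW480, with 0 higher, and medians of -0.81 and -0.99. Over all genes, as given above, 12.2% were lower and 12.2% higher in HCT116, and 14% lower and 12.9% higher in SW480, and no test of a list against these shares was made. PRC1, which bundles antiparallel microtubules and recruits KIF4A, changed by -1.70 (adjusted p = 1.56e-12) and -1.28 (adjusted p = 1.58e-11). AURKB, the kinase of the passenger complex, changed by -0.98 (adjusted p = 0.000103) and -1.10 (adjusted p = 2.96e-09). ANLN, a scaffold of the contractile ring, and BIRC5, of the passenger complex, were called in SW480 (-1.50 and -1.33) and not in HCT116 (-1.10 and -0.92, adjusted p = 1 each, as the siRNAs differed in direction).

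Of 20 spindle assembly partners, 7 were lower and 2 higher in HCT116 and 13 lower and 3 higher in SW480, so those higher were near the 12.2% and 12.9% of all genes. CKAP2L, a spindle protein, changed by -1.49 and -1.42 (adjusted p = 3.93e-06 and 7.34e-07), and NEK2, a centrosome kinase, by -1.36 in each line (adjusted p = 0.0103 and 1.09e-06). AURKA, the spindle pole kinase, was called in SW480 (-1.39) and not in HCT116 (-1.0, adjusted p = 0.0998), as was BORA, a cofactor of AURKA (-1.60, and -1.29 with adjusted p = 0.183). Of 7 other mitotic motors, 3 were lower and 1 higher in each line. Over all genes, 12.2% were lower and 12.2% higher in HCT116, and 14% lower and 12.9% higher in SW480. The motors higher were thus near these shares. CENPE, the kinetochore kinesin, changed by -1.05 and -1.33, and KIF22, a chromokinesin, by -1.01 and -0.93.

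Of 16 regulators of G2/M transcription, 8 were lower and 1 higher in HCT116 and 9 lower and 1 higher in SW480 with the BRD8 siRNAs, beside 12.2% of all genes lower in HCT116 and 14% in SW480. CDK1, the mitotic kinase, changed by -1.48 (adjusted p = 1.84e-06) and -1.90 (adjusted p = 3.26e-10), and CCNB2, one of its cyclins, by -0.70 and -1.20. Both were also lower with the TIP60 siRNAs, CDK1 at -0.63 (HCT116, adjusted p = 3.91e-06) and -0.65 (SW480, adjusted p = 0.000227), where the members' medians were -0.14 and 0.06. CDKN1A, the inhibitor of cyclin-dependent kinases, rose in HCT116 with BRD8 siRNAs (1.21, adjusted p = 1.59e-05) and TIP60 siRNAs (1.41, adjusted p = 2.32e-10), and stood at -0.16 and -0.03 in SW480 (adjusted p = 1 each). RBBP4, a MuvB subunit, was lower with the TIP60 siRNAs in both lines (-1.37 and -1.45).

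Among kinesins and partners that carry cargo or build cilia, more were higher than lower. Of 25 tested in HCT116, 1 was lower and 8 higher with both BRD8 siRNAs, and of 26 in SW480, 1 was lower and 7 higher, with medians of 0.29 and 0.38, beside 12.2% and 12.9% of all genes higher. KIF26B rose by 1.86 (adjusted p = 1.34e-06) and 1.80 (adjusted p = 6.65e-10), from a mean count of 186. KIF2A, the kinesin-13 nearest to KIF2C, stood at 0.02 in HCT116 (adjusted p = 1) and rose by 0.38 in SW480 (adjusted p = 0.000107). Of 10 tubulins, the subunits of the track itself, 1 was lower and 6 higher in HCT116, where 12.2% of all genes were lower and 12.2% higher. Among those higher were TUBA1A (1.56, adjusted p = 1.29e-09) and TUBB2A (1.15). In SW480, 2 were lower and 3 higher, where 14% and 12.9% of all genes were. TUBB3 and TUBA4A, also among the largest changes of the list, had mean absolute log2 changes of 0.504 and 0.477 over the 4 target comparisons.

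**Figure D5:**
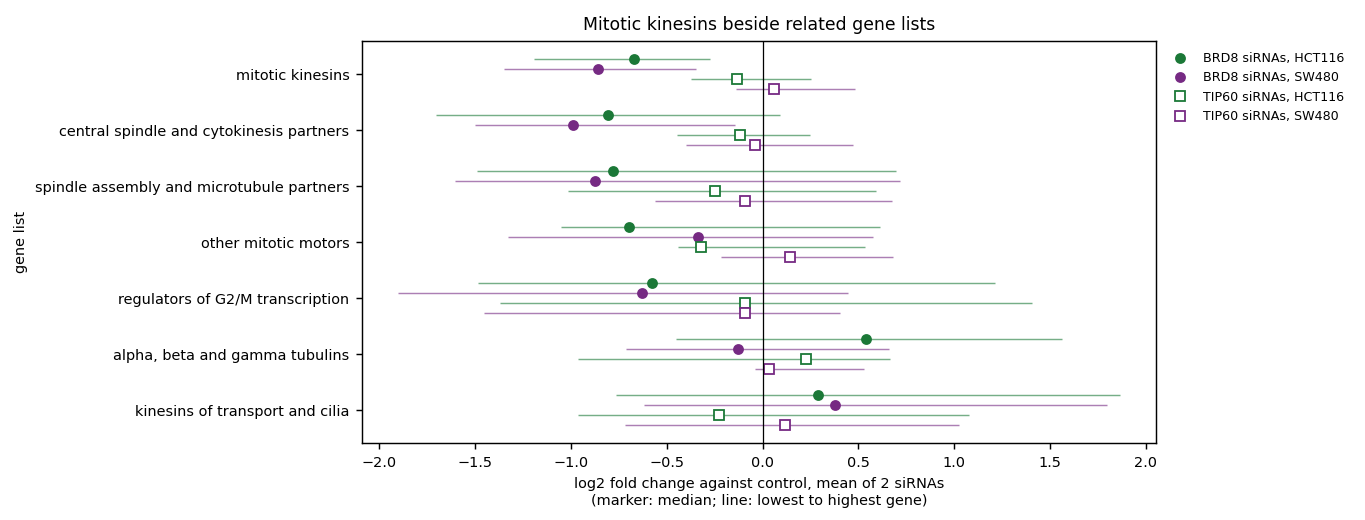
Log2 fold change against control, as the mean of both siRNAs of a target (horizontal axis), for the mitotic kinesins and 6 related gene lists (vertical axis); markers are list medians and lines run from the lowest to the highest gene. The BRD8 medians of the mitotic kinesins are -0.67 in HCT116 and -0.86 in SW480, on the other side of 0 from those of the transport kinesins.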

How the data were processed

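RNA of 30 libraries was measured, and samples were grouped by the line and siRNA in their titles. The tools named in the submitters' processing notes are RSEM 1.3.3, STAR 2.7.3a and Trimmomatic 0.33, with the build hg38. Strand setting and annotation release: not given in the sources used here. For every gene the authors deposited the expected count, an estimate that divides reads shared between genes, and its TPM, per the file headers. A gene's TPM also moves with the isoforms RSEM assigns. Per the labels' protocols, libraries were strand-specific, from 100 ng of total RNA, read over 60 bases.

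Expected counts were rounded and fitted with edgeR 4.0.16 (R 4.3.3; TMM, default expression filter, robust quasi-likelihood) over all genes, each line with its 15 libraries and the lines together with 30, at an adjusted p of 0.05. CPM values use the same scaling. Standard errors were derived from the log2 fold change and the F statistic. For a target, the larger p-value of its siRNAs was adjusted, set to 1 where their directions differed. Alternatives were RLE scaling, total counts, DESeq2 1.42.0, no filter, CPM of at least 1 in 3 libraries, limma 3.58.1 on log2(TPM + 1), the replicate number as a block, fewer libraries, and leaving out each replicate. Those for single siRNAs were added after seeing the data. The fits were tested on simulated data.

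No replicates agreed within sampling noise (chi-square per gene 1.47 to 21.3 over 30 pairs). The members and lists were chosen with earlier results of these data known. Named are the members, BRD8, KAT5, KIF4B, up to 4 genes of each list with the largest mean change over the 4 target comparisons and a mean count of at least 50, and the 5 genes most correlated with the members' mean. Gene positions and overlaps come from GENCODE 29 and promoters from RefSeq (GRCh38.p14), whose starts can differ.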

Additional observations from a re-analysis of the deposited data

Results flagged for a closer look

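Responses that differed between the lines by the interaction test of the 30-library edgeR fit are listed here, as SW480 minus HCT116 on the log2 scale. For the BRD8 siRNAs these were KIF11 (0.30 ± 0.101), KIF18A (-0.28 ± 0.0933) and KIF20B (-0.30 ± 0.0888), beside a median of 0.10 for all genes. Over all genes, 12.5% responded lower in SW480 to the BRD8 siRNAs and 21.9% higher, so the counts of members were near these shares. Of 25 alternatives, KIF11 lost its call in 12, KIF18A in 3 and KIF20B in 1. For the TIP60 siRNAs they were KIF4A (0.60 ± 0.0825), KIF14 (0.56 ± 0.14), KIF15 (0.53 ± 0.102), KIF20A (0.42 ± 0.0939), KIF11 (0.40 ± 0.0954), KIF2C (0.36 ± 0.0853) and KIF18A (-0.25 ± 0.0904), beside a median of 0.06 for all genes. Over all genes, 13.1% responded lower in SW480 to the TIP60 siRNAs and 18% higher. KIF18A lost its call in 4 of 25 alternatives and KIF15 in 1. All these values average the siRNAs of a target, which were not always alike. Groups of 3 libraries are too small for a test of single outlying libraries.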

How the results depend on the processing

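Of the 13 counts of members fixed in the design, those for siBRD8-36 against siBRD8-6 in each line stayed at 10 under each alternative. The TIP60 count in HCT116 went from 2 to 0 on log2(TPM + 1) and to between 1 and 5 leaving out a library, and with siTIP60-2 alone from 2 to 1 and to between 1 and 6. In SW480 log2(TPM + 1) moved the BRD8 count from 9 to 2, the TIP60 count from 1 to 2, siBRD8-6 alone from 9 to 3 and siTIP60-2 alone from 5 to 8, and siTIP60-11 against siTIP60-2 in HCT116 from 4 to 2. For siBRD8-6 alone in HCT116, leaving out a library gave 3 to 5, where all libraries gave 6. The BRD8 difference between lines went from 3 to 5 with RLE scaling, 5 with DESeq2, 5 without filter, 6 with the CPM filter, 1 on log2(TPM + 1), and 2 to 6 leaving out a library. The stricter four-way call left 0 of 9 in HCT116. With the replicate number as a block the counts were 3 and 2 in HCT116 (BRD8, TIP60) and 9 and 1 in SW480. Of 130 member values 128 kept direction and call. Same-numbered libraries deviated together little, with correlations of -0.059 to 0.143 in HCT116 (median 0.04) and -0.157 to 0.175 in SW480 (median -0.01). Such correlations cannot show whether the numbers pair libraries. Signs that reversed belonged to values that were not called. Against control with TIP60 siRNAs, KIF15 in HCT116 became 0.14 on log2(TPM + 1) and -0.13 to 0.026 leaving out a library. In SW480, total counts and log2(TPM + 1) gave KIF18A 0.043 and 0.23, KIF18B 0.053 and 0.20 and KIF2C 0.033 and 0.18, and leaving out a library gave KIF18B -0.08 to 0.06. BRD8 against TIP60 in HCT116 became 0.042 for KIF20A on log2(TPM + 1). For siTIP60-11 against siTIP60-2 in HCT116, KIF15 stood at 0.00 (RLE), -0.004 (DESeq2), -0.018 (no filter), -0.001 (CPM filter) and -0.078 (TPM), with -0.037 to 0.045 leaving out a library, and KIF20A at -0.054 to 0.023. In SW480 the same difference was -0.019 and -0.071 for KIF18A and -0.005 and -0.21 for KIF20A (total counts, TPM). The BRD8 difference between lines was -0.04 (RLE), -0.041 (DESeq2), -0.061 (no filter) and -0.077 (CPM filter) for KIF18B and -0.001, -0.002, -0.023 and -0.039 for KIF20A, with -0.04 to 0.12 and -0.068 to 0.12 leaving out a library, and on log2(TPM + 1) 0.009 for KIF23, 0.13 for KIF2C and 0.072 for KIF4A. The TIP60 difference of KIF20B became 0.004 (total counts) and 0.18 (TPM), and the control difference of KIF4A -0.19 (TPM). Except where a library was left out, the cause was not tested. SW480 libraries hold fewer reads than HCT116 libraries, which limits small changes there.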
